A study of Rattus norvegicus with 4 samples.

Results

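The genes described here encode secreted and secretion-related proteins that are known from prostate or other glandular fluids: probasin (Pbsn), the spermine-binding protein (Sbp), the androgen-regulated protein Andpro, the secretoglobins Scgb2a1 and Scgb1d2, the protease inhibitor Spink3, the zinc-binding glycoprotein Azgp1 and the polymeric immunoglobulin receptor Pigr. They were chosen by name, as genes of known secretory function, and every probe set that the array annotation assigned to one of these symbols and to no other symbol was taken. Of the 8 genes, 7 had such a probe set, 10 probe sets in all among 31042 on the array, and 4 of these belonged to Andpro. All 10 passed the filter on dim probe sets, which 18625 probe sets passed. The annotation held no probe set under the symbol Spink3, so no value is given for it. RefSeq lists Spink3 as an older name of both Spink1 and Spink1l. The 3 probe sets of Spink1 had signals of 0.3 to 9.9 and that of Spink1l signals of 3.3 to 10.3, and none of these 4 passed the filter.

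Ventral prostate lobes came from male rats of the inbred F344 strain that were 6 weeks old. The PhIP group received the cooked-meat carcinogen PhIP, a heterocyclic amine, at 300 mg/kg and the control group did not, and all rats were killed 2 days later. Whether controls received a vehicle is not given in the sources used here. Each group held 4 rats whose RNA was combined in pairs, so that the comparison rests on 2 arrays per group (control 1, control 2, PhIP 1, PhIP 2), each a pool of 2 rats.

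The luminal cells of the ventral lobe synthesise a few proteins in very large amounts and release them into the prostatic fluid. Transcription of the most abundant of them depends on the androgen receptor, and these are widely used as readouts of androgen action in the rat prostate. The most abundant product, prostatein (prostatic steroid-binding protein), joins a dimer of Scgb1d2 and Scgb2a1 to a dimer of Scgb1d4 and Scgb2a1, and RefSeq gives Psbpc1, Psbpc3 and Psbpc2 as older names of Scgb1d2, Scgb2a1 and Scgb1d4. Scgb1d4 was not among the 8 genes and was taken from a list of other secretory genes. Probasin is a lipocalin, a small carrier of lipophilic ligands, and its promoter is widely used to direct transgenes to the prostate epithelium. Andpro belongs to a family of cystatin-related secretions.

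The 3 genes of prostatein lie close together on rat chromosome 1, with 1 other protein-coding gene between Scgb1d2 and Scgb1d4 and 0 between Scgb1d4 and Scgb2a1. The 250 bases before their annotated starts, and those of Pbsn, are shown because these genes are the best-known androgen-driven members and because the prostatein subunits gave differences of opposite sign. Sequences are from RefSeq, build GRCr8, and run 5′ to 3′ on the gene's strand. Capitals mark the hexamer TGTTCT or its reverse complement AGAACA, the core of the androgen receptor element, and the TATA motif TATAAA, which was searched on the gene's strand only. The windows are chrX:45807984-45808233 (minus strand) for Pbsn, chr1:215922501-215922750 (plus strand) for Scgb2a1, chr1:215656711-215656960 (minus strand) for Scgb1d2 and chr1:215755113-215755362 (plus strand) for Scgb1d4.
Pbsn: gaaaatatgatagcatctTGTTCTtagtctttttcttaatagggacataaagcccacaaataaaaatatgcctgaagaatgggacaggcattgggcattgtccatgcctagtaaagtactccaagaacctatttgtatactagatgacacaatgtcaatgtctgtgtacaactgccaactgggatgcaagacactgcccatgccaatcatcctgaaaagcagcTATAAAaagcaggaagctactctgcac
Scgb2a1: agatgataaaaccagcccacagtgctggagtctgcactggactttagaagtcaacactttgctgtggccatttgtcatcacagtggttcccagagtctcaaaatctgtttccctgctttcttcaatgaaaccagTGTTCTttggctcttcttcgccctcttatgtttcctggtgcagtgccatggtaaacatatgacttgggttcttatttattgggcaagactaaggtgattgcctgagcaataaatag
Scgb1d2: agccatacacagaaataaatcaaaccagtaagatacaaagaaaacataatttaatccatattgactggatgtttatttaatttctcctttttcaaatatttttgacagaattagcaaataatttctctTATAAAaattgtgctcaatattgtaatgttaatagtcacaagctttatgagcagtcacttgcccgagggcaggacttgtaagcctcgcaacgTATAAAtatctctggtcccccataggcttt
Scgb1d4: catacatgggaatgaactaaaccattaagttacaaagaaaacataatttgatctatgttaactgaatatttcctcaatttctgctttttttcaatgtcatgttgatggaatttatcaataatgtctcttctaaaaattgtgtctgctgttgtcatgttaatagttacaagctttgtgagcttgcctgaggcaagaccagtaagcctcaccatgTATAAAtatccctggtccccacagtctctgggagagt

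The androgen receptor hexamer began 232 bases before the start of Pbsn and 116 bases before that of Scgb2a1. It was found in 2 of the 9 windows that RefSeq gives for the 7 genes (3 of them for Sbp), and in 17.5% of the 33469 windows of the same length in the table. No window of the 7 genes held the palindrome of AGAACA, any 3 bases and TGTTCT, which contains the hexamer on both strands and which 4 windows in the table held. The TATA motif began 27 bases before the start of Pbsn and 30 and 122 bases before that of Scgb1d2, and was in 2 of the 9 windows against 8.06% in the table. The windows of Scgb1d2 and Scgb1d4 could be aligned over 235 bases, of which 83.0% were identical. Between Scgb1d2 and Scgb2a1 it was 69.8% of 106 bases, and between Scgb1d4 and Scgb2a1 74.1% of 193. No background of unrelated windows is given for these shares. Motifs and alignments alike are matches of letters and do not show binding.

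Values are MAS5 signals, intensities on a linear scale. The arrays had median signals of 25.5 and 27.4 (control) and 23.2 and 23.1 (PhIP), and the highest signal on an array lay between 9761.2 and 10345.2. The 3′/5′ signal ratio, which rises as RNA degrades, was highest on control 2, both for actin (5.71 against 3.49 to 4.18) and for Gapdh (2.06 against 1.34 to 1.45). All 10 luminal epithelial markers listed passed the filter, with a summed signal of 9237 to 9534 in control and 10671 to 10895 in PhIP. For smooth muscle, 7 of 7 markers passed, with sums of 5905 to 5970 in control and 3625 to 3665 in PhIP, and for fibroblasts 6 of 6, with sums of 8755 to 11236 and 6734 to 6778. Of 8 markers of the seminal vesicle and coagulating gland, 7 were on the array and 3 passed, with sums of 278 to 326 and 205 to 273. No marker of these lists was at 0 on all arrays. The shift between luminal and stromal markers moves with the treatment, and its part in the results on secretory genes was not tested. In whole tissue, fewer cells of a type and less RNA per cell cannot be told apart.

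The secretory genes were at the top of the signal range in both groups, with Azgp1 as the exception. Of their 10 probe sets, 4 were among the 10 brightest of the array and 6 among the 30 brightest by mean signal. The Andpro probe set 1371364_a_at gave the highest signal of all on PhIP 2 (10345.2) and the second rank on control 1 and PhIP 1. The other bright members were Sbp, Scgb2a1 and Scgb1d2, with Pbsn at rank 86 and Pigr at rank 157. Signals so close to the highest recorded can understate a difference, and scanner saturation was not analysed here. Ranks describe brightness, not the order of transcript abundance, since probe sets differ in how strongly they hybridise.

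**Figure D1:**
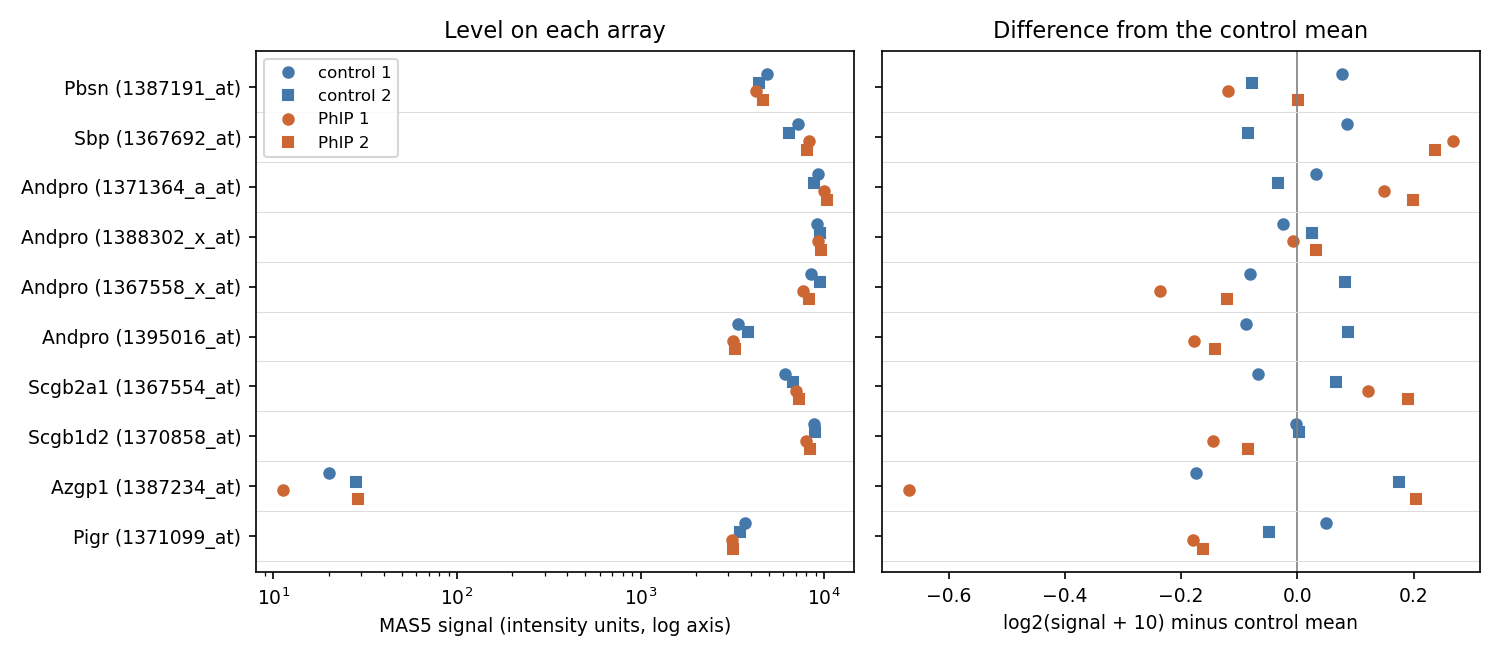
Left, MAS5 signal of each of the 10 probe sets on the 4 arrays, on a log axis; right, the same values as log2(signal + 10) minus the mean of the 2 control arrays. Of the probe sets, 9 lie between 3166.6 and 10345.2 and Azgp1 between 11.3 and 29.0, and the PhIP arrays lie on one side of both control arrays in 7.

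The comparison of PhIP with control asks whether the secretory output of the gland, read as mRNA, differed 2 days after the carcinogen. None of the 10 probe sets passed the threshold, an adjusted p of 0.05 in limma's moderated test over 18625 probe sets (lowest adjusted p = 0.206, highest 0.933), where 0.0268% of all tested probe sets were called. At an unadjusted p under 0.05, 3 of the 10 were higher in PhIP, against 5.36% of all tested probe sets, and 2 were lower, against 7.61%. Most members are bright, and among the 157 probe sets at least as bright as the dimmest of the 9 bright ones these shares were 18.5% higher and 5.73% lower. The groups did not overlap in 3 that were higher, against 19.8% of all tested probe sets, and in 4 that were lower, against 26.0%. The size of the differences was small: the 9 bright probe sets had log2 differences of 0.01 to 0.25 in either direction (median size 0.16), with standard errors of 0.05 to 0.08. Among the 157, the median size was 0.10 and the median standard error 0.06, against 0.18 and 0.18 over all tested probe sets. Of these 157, the groups did not overlap with PhIP higher in 51.0% and with PhIP lower in 13.4%.

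Sbp, which encodes a secreted protein that binds the polyamine spermine, had the lowest p of the members. Its signals were 7243.7 and 6436.1 in the control pools against 8219.2 and 8045.3 in the PhIP pools. Both PhIP arrays lay above both controls, and the controls differed from each other by more than the PhIP arrays did. The log2 change was 0.25 ± 0.07 (SE; 95% interval 0.10 to 0.41; unadjusted p = 0.0061, limma adjusted p = 0.206), a fold of 1.19. Without control 1 it was 0.34 and without control 2 it was 0.17. Such fits leave 1 array in a group, so that group has no spread of its own and no p is read from them. Over the alternatives that kept all 4 arrays, the limma adjusted p ranged from 0.0878 to 0.54. The control array left when control 1 is dropped, control 2, is the one with the highest 3′/5′ ratios, and the part of RNA integrity was not tested.

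The subunits of prostatein stood on opposite sides of 0 under the authors' scaling, whereas Scgb2a1 and Scgb1d2 were both above 0 after median centring or scaling to the hybridization controls and both below it after centring on luminal markers. Scgb2a1, the subunit shared by both dimers, had signals of 6130.3 and 6725.8 in control against 6990.3 and 7329.9 after PhIP, with no overlap. Its log2 change was 0.16 ± 0.06 (95% interval 0.01 to 0.31, limma adjusted p = 0.369), with 0.09 without control 1 and 0.22 without control 2. The array annotation gives its probe set under 2 gene identifiers with the same symbol. Scgb1d2 had signals of 8830.9 and 8862.4 in control against 8004.1 and 8344.7 after PhIP, again with no overlap but in the other direction. It stood at −0.11 ± 0.05 (95% interval −0.23 to 0.01, limma adjusted p = 0.405). Scgb1d4, the partner of Scgb2a1 in the other dimer, had signals of 8466.7, 8623.8, 9291.3 and 9135.9 in the order control 1, control 2, PhIP 1 and PhIP 2. Both PhIP arrays were the higher ones, by 0.11 ± 0.05 (95% interval −0.01 to 0.22, limma adjusted p = 0.409). A further probe set, 1373762_a_at, is annotated to Scgb1d2-ps1, a pseudogene whose name ties it to Scgb1d2, and was looked up after the values of Scgb1d2 had been seen. It stood at 0.11 ± 0.05 (limma adjusted p = 0.444), opposite in sign to Scgb1d2. Whether these probe sets share probes was not analysed here, so the values of single subunits are uncertain.

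Differences between probe sets on the same array do not change under a scaling that shifts the whole array. Quantile normalization and cyclic loess can change them. The log2 difference of Scgb2a1 minus Scgb1d2 was −0.53 and −0.40 in the control pools against −0.20 and −0.19 in the PhIP pools. PhIP was thus higher by 0.27 without overlap, a ratio 1.21 times that of control. For Scgb1d4 minus Scgb1d2 the change was 0.22, also without overlap, and for Scgb2a1 minus Scgb1d4 it was 0.05 with overlap. Sbp minus Pigr was higher by 0.42 and Sbp minus Pbsn by 0.31, both without overlap. Where the first probe set was higher in PhIP and the second lower, each without overlap, their difference could not overlap. This holds for Scgb2a1 and Scgb1d4 minus Scgb1d2 and for Sbp minus Pigr, which add no separate evidence. In all, 11 such differences were computed, chosen after values had been seen. With 2 arrays against 2, an exact two-sided permutation test cannot go below p = 0.333, so it cannot reach 0.05 for any of them.

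Andpro gave no common direction across its 4 probe sets under the authors' scaling. After scaling to the hybridization controls all 4 stood above 0, from 0.05 to 0.40. The probe set 1371364_a_at had signals of 9216.5 and 8807.6 in control against 9991.8 and 10345.2 after PhIP, a log2 change of 0.17 ± 0.05 (95% interval 0.05 to 0.30, limma adjusted p = 0.246). In 1388302_x_at, which the annotation ties to the same source sequence, the signals were 9190.8, 9516.5, 9303.0 and 9565.0, and the groups overlapped (0.01 ± 0.05, limma adjusted p = 0.933). The suffix _a_at marks probes shared by transcripts of 1 gene, and _x_at marks probe sets in which some probes also match other sequences. In 1367558_x_at the signals were 8513.1 and 9537.1 in control against 7650.1 and 8284.3 after PhIP (−0.18 ± 0.07, limma adjusted p = 0.354). The dimmest, 1395016_at, had 3383.4 and 3824.4 in control against 3178.0 and 3259.5 after PhIP (−0.16 ± 0.08, limma adjusted p = 0.421). So 1 probe set was higher in PhIP without overlap, 2 were lower without overlap and 1 overlapped. Averaged over the 4 probe sets, the gene stood at −0.04 (adjusted p = 0.782). Without control 1, the probe set that was higher stood at 0.21 and both that were lower at −0.26 and −0.25. Without control 2 these came closer to 0, the higher one at 0.14 and both lower ones at −0.10 and −0.07. The overlapping one, 1388302_x_at, moved from 0.01 to 0.04.

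The difference between 1371364_a_at and 1367558_x_at was 0.11 and −0.11 in the control pools against 0.38 and 0.32 in the PhIP pools. The change of 0.35 does not depend on a scaling that shifts a whole array. Since these probe sets changed in opposite directions, each without overlap, it had to exceed either change alone and could not overlap. A close relative was also bright: P22k15, which RefSeq also calls Crp2 as it calls Andpro Crp1, lies near Andpro on chromosome 3 with 2 protein-coding genes between them. It was looked up after the Andpro values had been seen. The 250 bases before the starts of Andpro and P22k15 could be aligned over 218 bases, with 90.4% identical. The 3 probe sets of P22k15 had signals of 7570.2 to 8558.2 and stood at 0.02 ± 0.06, −0.09 ± 0.06 and 0.03 ± 0.05, of which the second (1370846_at) did not overlap between groups. Whether Andpro probe sets also detect P22k15 was not tested. Cyssl1 and Cyssl2 were looked up as well, and all their probe sets were higher in PhIP without overlap. The same held for 19.8% of all tested probe sets and for 51.0% of the 157 bright ones. Cyssl1 stood at 0.09 ± 0.05 and the 2 probe sets of Cyssl2 at 0.06 ± 0.05 and 0.28 ± 0.10 (limma adjusted p = 0.472, 0.645 and 0.308).

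**Figure D2:**
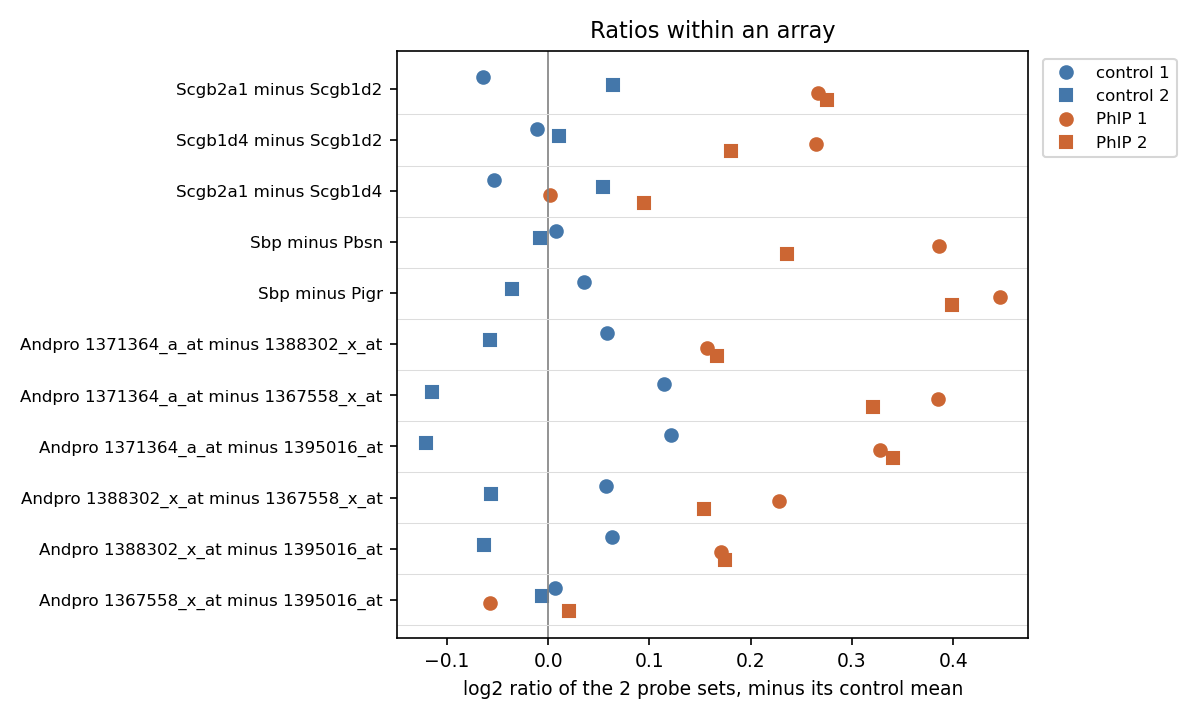
Log2 ratio of pairs of probe sets on each array, minus its control mean; points are arrays. In 9 of the 11 pairs both PhIP arrays lie to the right of both controls. The groups overlap for Scgb2a1 minus Scgb1d4 and for the Andpro pair 1367558_x_at minus 1395016_at. The side depends on which probe set was subtracted, and the Andpro pairs reuse the same probe sets. No share over other pairs of probe sets is given, so the count is not read as a result.

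Pbsn, the gene of probasin, had signals of 4898.1 and 4398.8 in control against 4273.0 and 4643.4 after PhIP. The groups overlapped, since PhIP 2 lay between the controls. The log2 change was −0.06 ± 0.08, and its 95% interval, −0.24 to 0.12, spans folds of 0.85 to 1.08. Leaving out control 1 or PhIP 1 brought the value to 0.02 and 0.00, and leaving out control 2 or PhIP 2 to −0.14 and −0.12.

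Pigr and Azgp1 complete the set. Pigr, the receptor that carries polymeric immunoglobulin A across epithelia and is shed with it into the secretion, had signals of 3710.4 and 3464.3 in control against 3166.6 and 3201.7 after PhIP. Both PhIP arrays were lower, by 0.17 on the log2 scale (−0.17 ± 0.07, 95% interval −0.32 to −0.02, limma adjusted p = 0.348). Of 5 plasma cell markers, which would mark the source of immunoglobulin, 3 were on the array, and only Xbp1, a transcription factor gene of secretory cells in general, passed the filter (−0.01 ± 0.07). The joining chain gene Jchain and Mzb1 stayed at signals of 1.9 to 24.4.

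Azgp1, a secreted glycoprotein related to MHC class I, had signals of 20 and 28.2 in control against 11.3 and 29.0 after PhIP. These lie near the array medians and at rank 16116 by mean signal, so the array gave no bright signal for this gene in either group, unlike the other members. The PhIP arrays differed from each other by 0.87 on the log2 scale, and the change of −0.23 ± 0.33 (fold 0.85, 95% interval 0.50 to 1.45) ranged from −0.67 without PhIP 2 to 0.20 without PhIP 1. Azgp1 had the widest interval of the 10 probe sets.

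**Figure D3:**
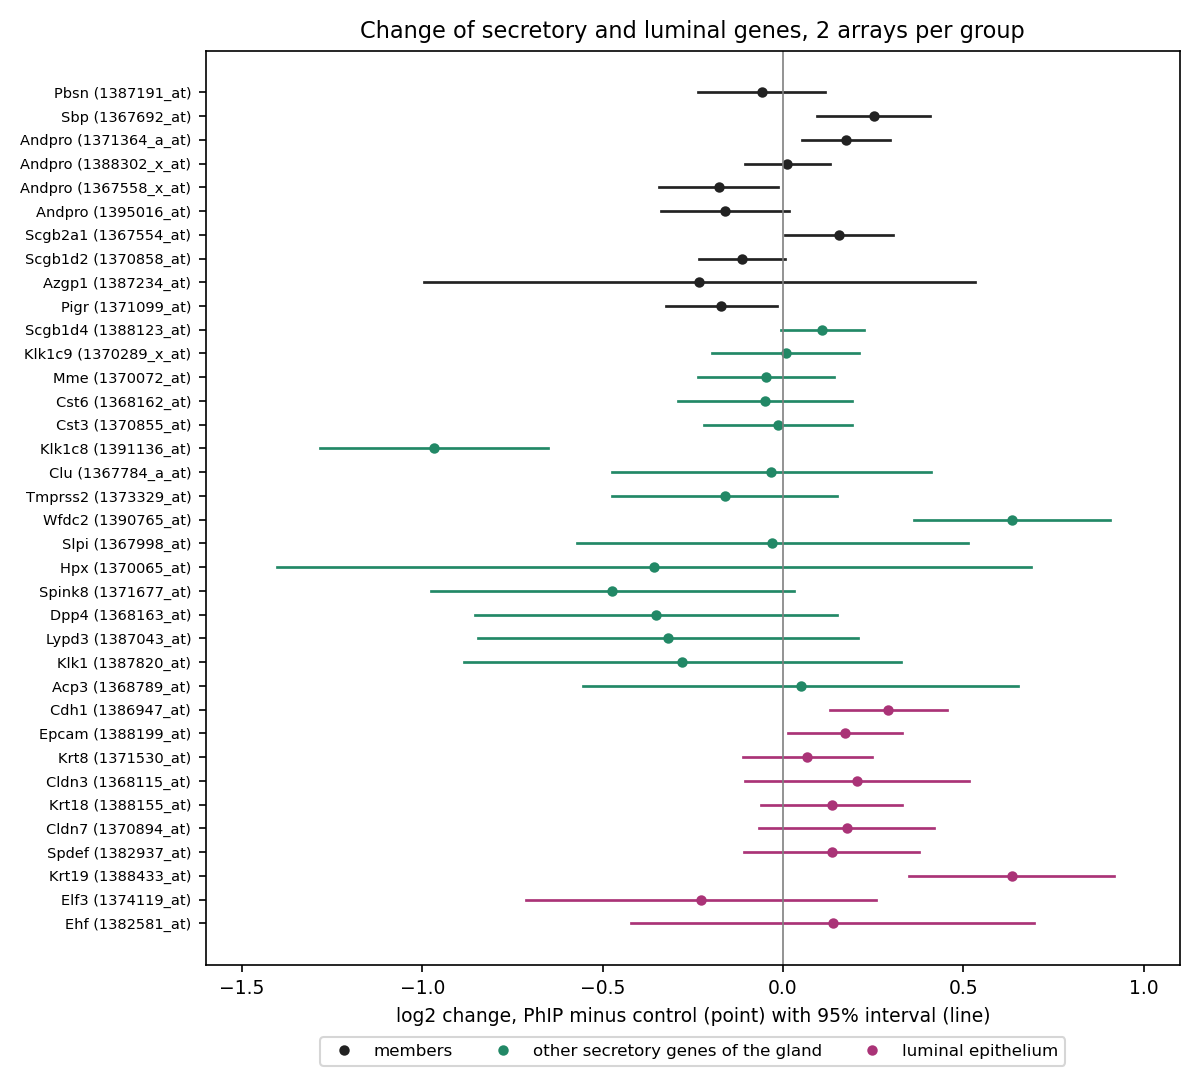
Log2 change of the 10 probe sets, of 16 other secretory genes and of 10 luminal markers, PhIP minus control, with 95% intervals from limma on 2 arrays per group. The 9 bright probe sets lie between −0.18 and 0.25, and Klk1c8 at −0.97 lies farthest from 0.

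The other secretory genes of the gland gave mostly small differences with a pair of larger ones. Of 46 listed genes, 35 were on the array and 16 passed the filter. None was called. The groups did not overlap in 2 that were higher, against 21.6% of all 10514 tested genes, and in 4 that were lower, against 26.9%, so the share that was lower (4 of 16) was near the background. The median log2 change of the 16 was −0.05, and it ranged from −0.17 (without control 1) to −0.06 (without PhIP 1) with 1 array left out, with −0.14 without PhIP 2 and −0.11 without control 2. Over the 7 measured members the median was −0.06, but it turned to 0.19 without PhIP 1 and to 0.02 without control 1, and was −0.12 without PhIP 2. Over all tested genes it was −0.03. Klk1c8, a tissue kallikrein and thus a secreted serine protease, had signals of 763.4 and 686.9 in control against 412.9 and 323.1 after PhIP. That is a log2 change of −0.97 ± 0.14 (limma adjusted p = 0.0534). With all 4 arrays kept, it passed the threshold in some alternatives, among them robust eBayes (limma adjusted p = 0.0392). In others it did not, among them quantile normalization (limma adjusted p = 0.0678). With 1 array left out it ranged from −1.14 to −0.80. The related Klk1c9 stood at 0.01 ± 0.09, with signals of 6745.9 to 8112.8. Wfdc2, a whey acidic protein domain inhibitor of proteases, had 212.5 and 198.2 in control against 324.8 and 323.9 after PhIP (0.64 ± 0.12, limma adjusted p = 0.0977). With all 4 arrays kept, Wfdc2 passed only after scaling to the hybridization controls (limma adjusted p = 0.0267). With 1 array left out it ranged from 0.59 to 0.68. The membrane peptidase gene Mme (−0.05 ± 0.08) and the cystatin genes Cst6 (−0.05 ± 0.10) and Cst3 (−0.01 ± 0.09) had overlapping groups.

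Factors that act with the androgen receptor were read from a list of 10 genes, of which 6 were on the array and 5 passed the filter. None was called. The groups did not overlap in 3 that were higher and 2 that were lower, against the same shares of all genes (21.6% and 26.9%). The median was 0.11, with 0.04 without PhIP 1, 0.19 without PhIP 2 and −0.06 after centring on luminal markers. The pioneer factor gene Foxa1 had the largest difference, with signals of 53.6 and 49.8 in control against 76.4 and 93.1 after PhIP (0.61 ± 0.18, limma adjusted p = 0.230). The androgen-induced co-chaperone gene Fkbp5 stood at −0.18 ± 0.10 in its brightest probe set and at 0.36 ± 0.23 in another.

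The direction of most members depended on how the arrays were scaled. The authors' scaling left the median log2 change of all tested genes at −0.03, median centring moved it to 0.11 and scaling to the 18 hybridization control probe sets to 0.20, while centring on the 10 luminal markers moved it to −0.20. Of the 2416 probe sets at an unadjusted p under 0.05, 41.3% were higher in PhIP, against 79.6% after median centring, 91.6% after scaling to the hybridization controls and 6.61% after centring on luminal markers. Sbp, the Andpro probe set 1371364_a_at and Azgp1 kept their sign under each of these, Sbp at 0.39, 0.48 and 0.08 in that order. Pigr stood at −0.03, 0.06 and −0.34, Scgb1d2 at 0.02, 0.11 and −0.29, and Pbsn at 0.08, 0.17 and −0.23. Relative to luminal markers, then, Sbp, Scgb2a1 (−0.02) and the Andpro probe set 1371364_a_at (0.00) lay within 0.08 of 0 and the other 7 probe sets lay between −0.16 and −0.40, with no call (lowest adjusted p = 0.0704, for Scgb1d2). The order of the probe sets by change is the same under the 4 scalings that shift a whole array.

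**Figure D4:**
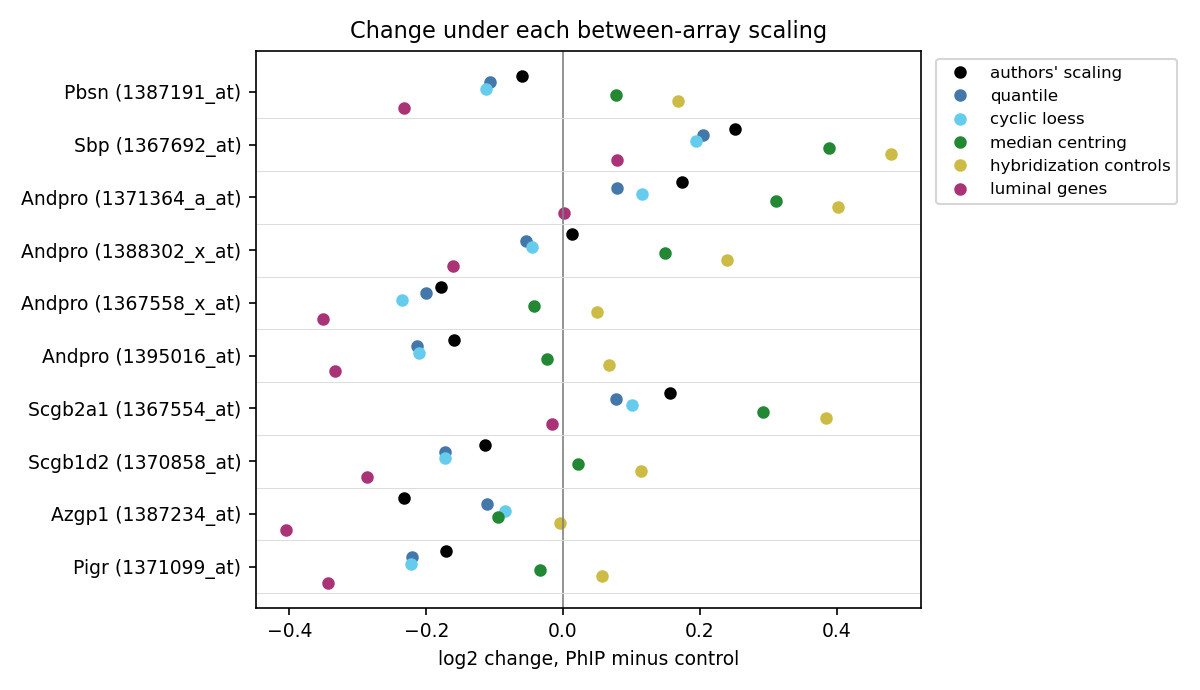
Log2 change of each of the 10 probe sets, PhIP minus control, under the authors' scaling and 5 alternatives; points are single fitted values. Sbp is to the right of 0 under all 6, Azgp1 is to the left of 0 and the Andpro probe set 1371364_a_at to the right of it under all 6, at −0.0043 and 0.0015 where they come nearest, and the other 7 lie on both sides.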

How the data were processed

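Per the submitters' processing notes, the deposited intensities came from MAS5, with no version named. Neither the scaling target nor detection calls were found in the sources used here. The mean after trimming 2% at each end was 100 on every array. Gene names came from the platform annotation (20843 with 1 distinct symbol, 425 with several and 9831 with none). The 57 control probe sets were left out.

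Signals were analysed as log2(signal + 10), which understates changes of dim genes. Probe sets with a mean above the 40th percentile were tested (18625) with the two-sided moderated test of limma 3.58.1 in R 4.3.3 (lmFit, then eBayes with trend). P-values were adjusted by Benjamini-Hochberg over all tested probe sets, with a threshold of 0.05, on 2 residual and 5.67 prior degrees of freedom. The fit was also run on simulated data with independent noise and no shift of whole arrays. That run does not bear on between-array scaling, and its outcome is not given. A gene is represented by its brightest probe set. P-values rest on the spread between pools of rats, most of it borrowed from probe sets of similar brightness through the prior. For Sbp, leaving out the trend moved the unadjusted limma p from 0.0061 to 0.125. Having 2 arrays per group limits precision.

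Genes, lists and tests were chosen with earlier results of these data known. Every member was named, with at most 3 genes per marker list and any tested gene of the other secretory list. Alternatives covered the constant, filter, normalization, eBayes settings, replicate block, probe set averaging and each array left out. Liver, leukocyte, basal, endothelial, skeletal muscle and adipocyte lists were also measured. Their median log2 changes were 0.86 (2 genes), 0.23 (3), −0.20 (4), −0.37 (4), −1.15 (5) and −0.88 (3). Single arrays stood apart: the liver median was 0.07 without PhIP 2, where Alb was 734.7 against 121.5 to 150.4, and 1.65 without PhIP 1. The skeletal muscle median was −1.87 without control 1 (Myl1 was 305.6 on control 2 against 4.5 to 9.1). The leukocyte median was 0.13 without control 1, and the adipocyte median −1.41 without PhIP 2 and −1.36 without control 2. Figures used matplotlib 3.10.9 under Python 3.11.15.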

Additional observations from a re-analysis of the deposited data

How the results depend on the processing

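Across 18 alternatives, Sbp kept its sign in all, and each of the other 9 probe sets changed sign in at least 1 (the Andpro probe set 1371364_a_at only when averaged with the other 3, at −0.038). Scaling to the hybridization controls gave 0.169 for Pbsn, 0.0493 for 1367558_x_at and 0.0678 for 1395016_at of Andpro, 0.114 for Scgb1d2 and 0.0571 for Pigr. Median centring gave 0.0771 for Pbsn and 0.0222 for Scgb1d2. Centring on luminal markers gave −0.0162 for Scgb2a1, −0.0641 for Scgb1d4 and −0.160 for the Andpro probe set 1388302_x_at, which was also −0.0548 after quantile normalization and −0.0459 after cyclic loess. With 1 array left out, Pbsn ranged from −0.14 to 0.0181, 1388302_x_at from −0.0127 to 0.0375 and Azgp1 from −0.67 to 0.204. The cause of these changes was not tested. Median centring, scaling to the hybridization controls and centring on luminal markers each shift all probe sets of an array together. Quantile normalization and cyclic loess do not.

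The number of probe sets called, 5, was 22 with a constant of 20% of the trimmed mean, 0 with no filter, 44 with the filter at the 60th percentile (which removed Azgp1), 0 after quantile normalization, 0 after median centring, 3 after cyclic loess, 165 after scaling to the hybridization controls, 40 after centring on luminal markers, 0 without the eBayes trend, 52 with robust eBayes and 63 with the mean of probe sets. It ranged from 0 to 2334 with 1 array left out. The number of member probe sets called, 0, ranged from 0 to 4 in those fits (4 without control 1) and was 0 in all others. With the replicate block it was 0 of the members and 35 in all. The arrays share only a number (correlation of deviations −0.056, equal for both numbers by construction), so the block is not read as a pairing.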
